A study of Mus musculus with 9 samples.

Results

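Tight junctions, gap junctions and desmosomes are the structures by which neighbouring epithelial cells seal, couple and hold on to each other, and most of their membrane proteins come from a few gene families. Protein-coding mouse genes were taken by symbol, with the root Cldn for claudins, Gja, Gjb or Gjc for connexins, Dsc or Dsg for desmosomal cadherins, Pkp for plakophilins and Tjp for the ZO proteins. The rule found 57 of the 52609 genes in the tables, and 54 of them are described here: 25 claudins, 14 connexins, 9 desmosomal cadherins, 4 plakophilins and 2 ZO proteins. Every count over members below is over these 54. The rule reads symbols only, but it was chosen with earlier results of these data known. Transcript levels came from poly(A) RNA sequencing of 9 libraries of 4 lines that the labels call epiblast stem cells, cultures started from dissected mouse epiblast and kept on growth-arrested embryonic fibroblasts. The medium of every line held Activin A (20 ng/mL) together with FGF2 (10 ng/mL). The groups were a Dkk1 knockout line, without the Wnt antagonist that Dkk1 encodes (Dkk1_KO, n = 3), a line derived with IWP2 from which it was later withdrawn (IWP2_removed, n = 2), a line kept in 5 µM IWP2, an inhibitor of Porcupine and so of Wnt secretion (IWP2, n = 2), and a control line without a knockout or an inhibitor (control, n = 2). The study asked how Wnt activity acts on epiblast cells. Each group was 1 line, so the line and its genotype or treatment cannot be told apart. The protocol also names the inhibitor SB431542, which no label of these 9 libraries lists.

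Claudins are membrane proteins that set the seal and the ion selectivity of the tight junction, and the ZO proteins, encoded by Tjp genes, tie them to actin on the inner side. Connexins assemble into channels that join the cytoplasm of adjacent cells at gap junctions. Desmogleins (Dsg) and desmocollins (Dsc) are cadherins that bridge cells at desmosomes, where plakophilins, plakoglobin and desmoplakin link them to keratin filaments. The epiblast is an epithelium, and the trophectoderm that surrounds the early embryo is a polarised epithelium with tight junctions and desmosomes that seal the blastocyst.

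Dkk1 itself had 10, 11 and 16 reads in Dkk1_KO, 57 and 93 in IWP2_removed, 52 and 6 in IWP2 and 76 and 144 in control, and was lower in the knockout by edgeR's quasi-likelihood test (log2 fold change -3.13 ± 0.68 SE, adjusted p = 0.00597). Estimated reads per library lay between 10849490 and 17892751. Summed TPM (a level per transcript length, scaled to a fixed total) of 5 epiblast markers, Pou5f1 and Nanog among them, was 2.06 to 2.87 in Dkk1_KO, against 772 to 862 in IWP2_removed, 521 to 1120 in IWP2 and 593 to 799 in control, so the markers of the labelled cell type were near 0 in the knockout line. The sum over 7 trophoblast markers was 796 to 853 TPM in Dkk1_KO, against 12.2 to 26.1 in IWP2_removed, 6.09 to 14.3 in IWP2 and 7.81 to 20.8 in control. The sum over 8 fibroblast markers, the cell type of the feeder cells, was 348 to 352 TPM in Dkk1_KO, against 781 to 814 in IWP2_removed, 519 to 729 in IWP2 and 759 to 981 in control. In each of these 3 lists no gene was at 0 reads in a whole group. All 3 marker lists thus moved with the comparison of Dkk1_KO with control, and their part in the junction genes' values was not tested. In such bulk samples fewer cells of a type and less RNA per cell cannot be told apart. The 3 Dkk1_KO libraries lay closer together than other replicates, with a median SD of 0.0578 in log2 CPM (reads scaled to library size by edgeR's TMM) against 0.162 to 0.294 in the other groups. The labels do not say whether replicates came from separate cultures, so p-values measure only the spread between these libraries, which may be technical.

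Promoter windows are shown for the 4 claudins with the highest TPM among members higher in Dkk1_KO. Each line gives RefSeq sequence of build GRCm38.p6 in the direction of the gene, from 250 bases before to 50 bases after the annotated start. Capitals mark the E-box CAGGTG or its reverse complement CACCTG, a motif bound by Zeb and Snail repressors.
Cldn7, chr11:69965171-69965470, plus strand: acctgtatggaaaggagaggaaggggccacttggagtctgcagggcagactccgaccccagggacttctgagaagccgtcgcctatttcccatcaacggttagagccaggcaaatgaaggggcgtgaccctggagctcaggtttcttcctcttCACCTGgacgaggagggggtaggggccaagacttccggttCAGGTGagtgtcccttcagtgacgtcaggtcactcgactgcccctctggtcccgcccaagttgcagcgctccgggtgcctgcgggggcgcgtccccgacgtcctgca
Cldn4, chr5:134946885-134947184, minus strand: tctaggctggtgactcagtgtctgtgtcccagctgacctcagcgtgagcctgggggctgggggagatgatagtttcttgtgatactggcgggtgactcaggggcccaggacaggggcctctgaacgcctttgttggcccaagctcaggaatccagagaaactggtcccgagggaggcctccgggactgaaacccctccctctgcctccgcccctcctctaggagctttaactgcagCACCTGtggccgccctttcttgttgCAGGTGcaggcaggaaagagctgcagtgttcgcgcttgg
Cldn6, chr17:23679115-23679414, plus strand: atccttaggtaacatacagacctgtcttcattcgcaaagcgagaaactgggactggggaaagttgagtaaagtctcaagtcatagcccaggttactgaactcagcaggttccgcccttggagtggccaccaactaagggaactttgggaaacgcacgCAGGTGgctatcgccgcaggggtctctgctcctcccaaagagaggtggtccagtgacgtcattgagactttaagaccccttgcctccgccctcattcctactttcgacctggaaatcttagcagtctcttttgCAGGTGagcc
Cldn3, chr5:134985964-134986263, plus strand: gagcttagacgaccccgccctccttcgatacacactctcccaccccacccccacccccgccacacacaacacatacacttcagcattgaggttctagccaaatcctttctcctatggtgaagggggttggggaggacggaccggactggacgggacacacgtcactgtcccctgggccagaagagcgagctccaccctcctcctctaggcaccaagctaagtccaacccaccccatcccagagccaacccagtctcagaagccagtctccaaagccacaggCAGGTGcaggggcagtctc
Positions below count from the start. The Cldn7 window held the E-box at -57 and, on the opposite strand, at -97. In Cldn4 it stood at 12 and, on the opposite strand, at -14, in Cldn6 at -93 and 41, and in Cldn3 at 32. The GC box GGGCGG, or in reverse complement CCGCCC, was also in all 4 of these windows, at -6 in Cldn7 and at -44 and -5 in Cldn4, for example, and at no place shared a base with an E-box. RefSeq's table held a window for 35 of the 54 members and for 8 of the 13 members that were higher in Dkk1_KO. The E-box was in 6 of these 8 (Cldn3, Cldn4, Cldn6, Cldn7, Pkp4 and Tjp3), in 0 of 4 windows of members lower in Dkk1_KO (Cldn1, Cldn11, Cldn2 and Gja1) and in 2 of 9 windows of tested members without a call (Gjb2 and Gjb6), with either strand searched. Of all 32851 windows of this length 20.2% held it. The GC box was in 5 of the 8, 2 of the 4 and 7 of the 9 windows, against 35.7% of all windows. TATAAA, or in reverse complement TTTATA, was in 1 of the 8, the window of Gjb5, in 1 of the 4 and in 1 of the 9, against 13.6% of all. AACCGGTT, a palindrome that Grainyhead-like factors bind, was in none of these windows and in 0.146% of all. The window of Cldn6 began its count 116 bases from the start of Cldn6-201 in GENCODE and that of Cldn7 25 bases from Cldn7-201, while those of Cldn3 and Cldn4 matched. These matches describe letters in a window and were not tested as binding sites.

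Setting the knockout line beside control addressed what differed between these lines in the same medium. Epithelial claudins (Cldn3, Cldn4, Cldn6 and Cldn7), the connexin Gjb5, the desmosomal genes Dsg2, Dsc2 and Pkp3 and the scaffold Tjp3 were higher in the knockout line, and the connexins Gja1 and Gjc1 were lower. Of the 54 members 28 had enough reads to be tested. Of these 13 were higher and 5 lower in Dkk1_KO (adjusted p below 0.05 over 18096 genes), while 10 did not pass. Among all genes tested 21.3% were called higher and 23.0% lower. The median log2 fold change was 0.84 over the 28 members and -0.03 over all genes tested. By family, 5 of 12 tested claudins were higher and 3 lower, 2 of 9 connexins higher and 2 lower, both desmosomal cadherins higher, all 3 plakophilins higher, and 1 of 2 ZO genes higher. Of the 28, 21 reached the read filter's level in control, and 9 of these (42.9%) were higher and 5 (23.8%) lower in Dkk1_KO. The 21.3% and 23.0% over all genes tested were not restricted to genes that reached this level in control. They are thus no like measures for the 42.9% and the 23.8%. Another 6 (Cldn23, Cldn4, Cldn9, Gja3, Gja4 and Pkp3) reached it through Dkk1_KO but not control, so that they could hardly have been found lower. Gjc3 reached it in neither. The median over the 28 members and the counts by family include the 6 members that reached it through Dkk1_KO but not control. Neither is therefore an even measure of direction. File names carry a letter for each library. Of the 18 called members 16 had the same sign of difference in both letters that Dkk1_KO and control share. Cldn11 and Gja4 had no reads in a library of 1 letter. The members were called from these same libraries, so the agreement in sign adds no support. With the 3 Dkk1_KO libraries averaged to 1, in case they are repeats of 1 sample, 10 members were higher and 4 lower, and the calls of Cldn1, Gja4, Pkp2 and Pkp4 were lost.

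**Figure D1:**
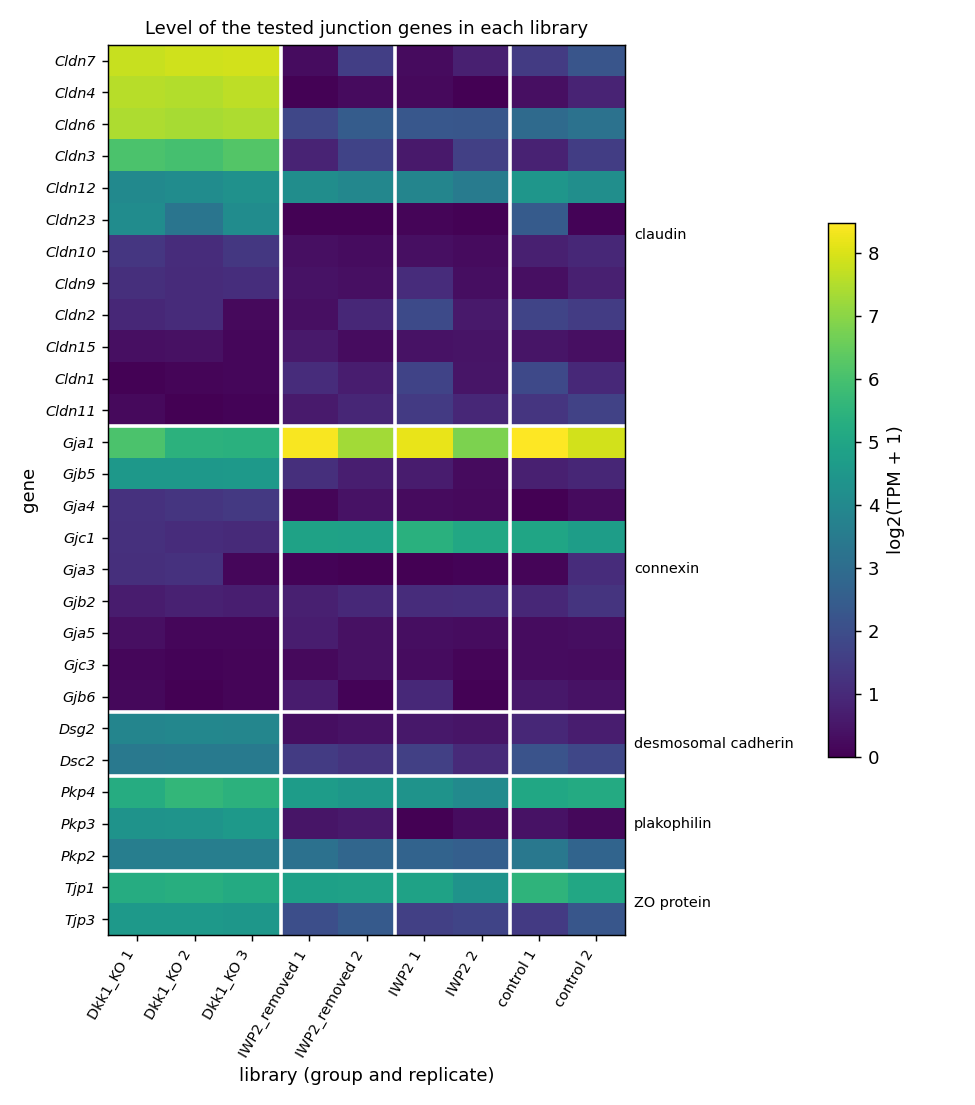
Level of 28 tested junction genes (rows, grouped by family) in each of the 9 libraries (columns), as log2(TPM + 1) on the colour scale. The 3 Dkk1_KO columns are bright for Cldn7, Cldn4, Cldn6 and Cldn3, while Gja1 and Gjc1 are brighter in the 6 columns of the other lines.

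The claudins higher in Dkk1_KO were Cldn4, Cldn7, Cldn3, Cldn6 and Cldn23. Cldn4 (ENSMUSG00000047501.3, chromosome 5, 134945119 to 134946934, minus strand), a barrier claudin of many epithelia and a receptor for Clostridium enterotoxin, had 189.8, 183 and 197 TPM in Dkk1_KO, 0.0261 and 0.177 TPM in IWP2_removed, 0.152 and 0.0215 TPM in IWP2, and 0.259 and 0.817 TPM in control. Every knockout library lay far above every library of the other lines, which held 1 and 7 reads in IWP2_removed, 6 and 1 in IWP2 and 6 and 32 in control. Its log2 fold change of Dkk1_KO over control was 8.53 ± 0.52 (SE, adjusted p = 8.82e-06). Cldn3 (ENSMUSG00000070473.4, chromosome 5, 134986214 to 134987472, plus strand), another such barrier claudin, had 66.7, 62.9 and 73.0 TPM in Dkk1_KO, 0.810 and 2.28 TPM in IWP2_removed, 0.509 and 2.04 TPM in IWP2, and 0.736 and 1.94 TPM in control. The groups did not overlap in the knockout comparison, and in each of the other 3 groups the library numbered 2 held the higher level. The log2 fold change of Cldn3 was 5.76 ± 0.71 (SE, adjusted p = 0.000315). Cldn3 and Cldn4 are neighbours on chromosome 5, on opposite strands and 39.3 kb apart.

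Cldn6 (ENSMUSG00000023906.3, chromosome 17, 23679249 to 23682446, plus strand), a claudin of embryonic epithelia that is largely silent in adult tissues, had 171, 167 and 171 TPM in Dkk1_KO, 2.47 and 4.54 TPM in IWP2_removed, 3.93 and 3.84 TPM in IWP2, and 6.62 and 8.15 TPM in control. It was the one of these 5 claudins with several TPM in every library of the other lines, and the knockout libraries still lay clear above all of them. Its log2 fold change was 4.73 ± 0.31 (SE, adjusted p = 1.08e-05). Cldn9, whose gene lies 137 bases from Cldn6 on the opposite strand, had 1.19, 1.07 and 1.14 TPM in Dkk1_KO and 0.285 and 0.674 TPM in control. It did not pass the test (log2 fold change 1.37 ± 0.59 SE, adjusted p = 0.0927), although its 3 knockout libraries lay above both control libraries, and without a read filter it passed (adjusted p = 0.0482). Cldn7 (ENSMUSG00000018569.12, chromosome 11, 69964779 to 69967885, plus strand), a basolateral claudin that binds Epcam, had 216, 234 and 239 TPM in Dkk1_KO, 0.221 and 1.99 TPM in IWP2_removed, 0.193 and 0.684 TPM in IWP2, and 1.79 and 3.75 TPM in control. Much of that TPM sat on transcripts under 400 bases, on which a few reads make a large TPM: 71.7% of its TPM but 23.6% of its reads in Dkk1_KO. On the longer transcripts it had 64.6, 62.2 and 68.3 TPM in Dkk1_KO and 1.32 and 1.95 TPM in control, again without overlap. The log2 fold change from all reads was 6.10 ± 0.50 (SE, adjusted p = 3.56e-05).

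Cldn23 (ENSMUSG00000055976.6, chromosome 8, 35824712 to 35826559, minus strand) had 16.3, 8.87 and 16.5 TPM in Dkk1_KO, 0.0256 and 0.0248 TPM in IWP2_removed, 0.0742 and 0.0422 TPM in IWP2, and 4.43 and 0.050 TPM in control. The TPM of control replicate 1 came from a short transcript: reads over the whole gene were 58, 64 and 78 in Dkk1_KO and 3 and 2 in control, and on transcripts of at least 400 bases the levels were 1.36, 1.74 and 1.91 TPM in Dkk1_KO and 0.0854 and 0.050 TPM in control. By reads the groups did not overlap, and the log2 fold change was 4.63 ± 0.46 (SE, adjusted p = 9.39e-05). Cldn12 (ENSMUSG00000046798.14, chromosome 5, 5489537 to 5514958, minus strand), an atypical claudin without the usual anchor for ZO proteins, had 15.3, 16.4 and 18.8 TPM in Dkk1_KO, 17.0 and 14.2 TPM in IWP2_removed, 13.6 and 10.7 TPM in IWP2, and 20.8 and 17.2 TPM in control. Short transcripts held 32.5% of its TPM in Dkk1_KO and 17.7% in control. It was the claudin with the highest TPM in each of the 6 libraries outside the knockout and did not pass the test (log2 fold change -0.21 ± 0.16 SE, adjusted p = 0.325). With only the groups compared it was called lower (edgeR, adjusted p = 0.0436).

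The 3 claudins lower in Dkk1_KO were all low in every line. Cldn1, needed for the barrier of the epidermis, had 3, 6 and 8 reads in Dkk1_KO against 119 and 73 in control, or 0.0814 ± 0.0362 TPM in Dkk1_KO and 1.83 ± 1.21 TPM in control (SD, n = 3 and n = 2). Cldn11, known from myelin and the testis, had 6, 0 and 2 reads in Dkk1_KO against 35 and 89 in control. Cldn2, which forms a cation pore in leaky epithelia, had 1, 3 and 2 reads in Dkk1_KO against 33 and 72 in control. In all 3 genes no knockout library reached the reads of a control library. Log2 fold changes were -4.17 ± 0.75 (SE, adjusted p = 0.00231) for Cldn1, -4.45 ± 0.73 (SE, adjusted p = 0.00149) for Cldn11 and -4.61 ± 0.46 (SE, adjusted p = 0.000104) for Cldn2. On TPM, of which 90.9% in Dkk1_KO and 56.7% in control sat on transcripts under 400 bases, the call of Cldn2 was lost (limma-trend on log2(TPM + 1), adjusted p = 0.134). Cldn10 (1.41 ± 0.263 TPM in Dkk1_KO, 0.806 ± 0.182 TPM in control) and Cldn15 (0.228 ± 0.106 TPM in Dkk1_KO, 0.327 ± 0.0745 TPM in control) did not pass. On TPM Cldn10 was called higher (limma-trend on log2(TPM + 1), adjusted p = 0.0371).

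Of the 9 tested connexins among those described here, 22.2% were called higher and 22.2% lower, close to the shares over all genes tested. Gjb5 (ENSMUSG00000042357.2, chromosome 4, 127354809 to 127358181, minus strand), which encodes connexin 31.1, known from trophoblast, had 21.8, 21.8 and 22.7 TPM in Dkk1_KO, 1.22 and 0.646 TPM in IWP2_removed, 0.564 and 0.183 TPM in IWP2, and 0.689 and 0.869 TPM in control. No knockout library overlapped another group, and the log2 fold change was 5.01 ± 0.37 (SE, adjusted p = 2.07e-05). Gja4, the connexin 37 of endothelium and oocyte, was called higher at a low level and had 1.30, 1.48 and 1.64 TPM in Dkk1_KO and 0 and 0.195 TPM in control, and its log2 fold change was 3.82 ± 0.83 (SE, adjusted p = 0.00591). The neighbouring genes Gja3, Gjb2 and Gjb6 on chromosome 14 held 0 of 3 calls. Gjb2, the connexin 26 of the inner ear and liver, had 0.558, 0.732 and 0.624 TPM in Dkk1_KO and 0.940 and 1.43 TPM in control (log2 fold change -0.70 ± 0.35 SE, adjusted p = 0.142). Gja3, Gja5, Gjb6 and Gjc3 did not pass either, with adjusted p from 0.152 for Gja3 to 0.372 for Gjc3. Gjb6 was called lower without a read filter, with only the groups compared and with the replicate number as a block (edgeR, lowest adjusted p = 0.0219).

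Gja1 (ENSMUSG00000050953.10, chromosome 10, 56377330 to 56402513, plus strand), which encodes connexin 43, the most widely expressed connexin and one that fibroblasts also carry, had 66.4, 43.0 and 40.4 TPM in Dkk1_KO, 336 and 156 TPM in IWP2_removed, 294 and 112 TPM in IWP2, and 358 and 238 TPM in control. The knockout libraries lay below all others, and the other lines overlapped among themselves. Its TPM too rested on short transcripts, which held 69.8% of the TPM and 1.72% of the reads in Dkk1_KO, and 69.6% of the TPM and 1.72% of the reads in control. On the longer transcripts Gja1 averaged 15.1 ± 0.379 TPM in Dkk1_KO (SD, n = 3) and 90.7 ± 34.7 TPM in control (SD, n = 2). The log2 fold change from all reads was -2.33 ± 0.24 (SE, adjusted p = 0.000125). Gjc1 (ENSMUSG00000034520.14, chromosome 11, 102799579 to 102819700, minus strand), the connexin 45 of early heart and smooth muscle, had 1.25, 1.09 and 0.996 TPM in Dkk1_KO, 28.8 and 28.2 TPM in IWP2_removed, 40.9 and 32.8 TPM in IWP2, and 31.0 and 25.5 TPM in control. All 6 libraries outside the knockout lay far above the 3 knockout libraries, and the log2 fold change was -4.07 ± 0.14 (SE, adjusted p = 9.04e-07). For Gjc1 short transcripts held 0% of the TPM in Dkk1_KO, 26.9% in IWP2 and 14.6% in control. The fibroblast markers, summed above, were also lower in Dkk1_KO, and their part in the Gja1 and Gjc1 values was not tested.

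**Figure D2:**
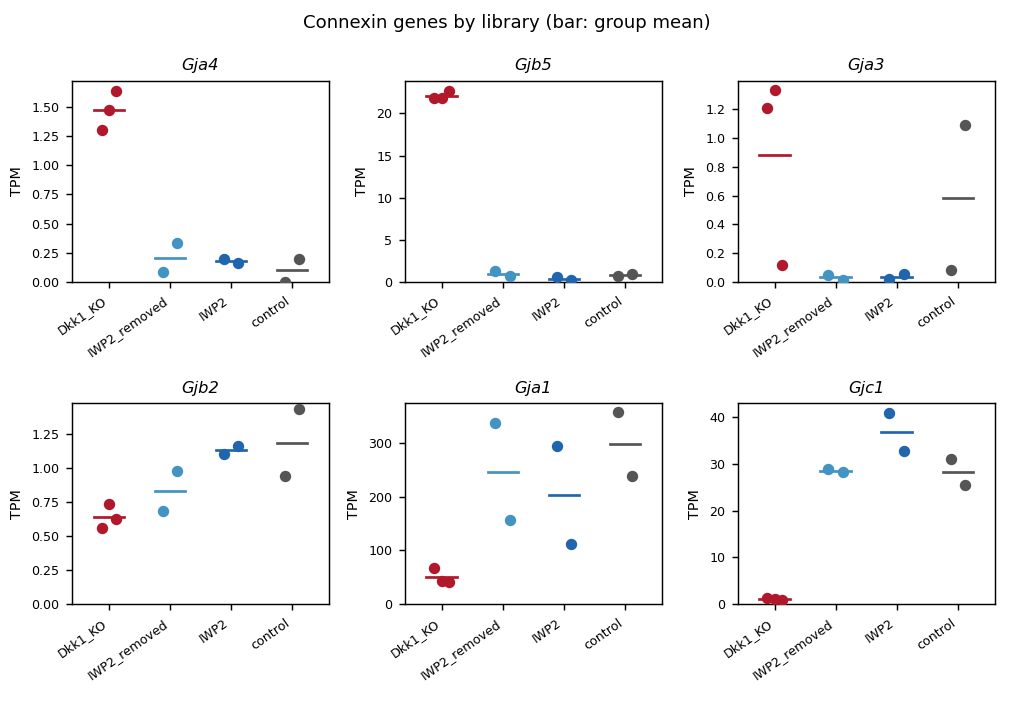
TPM of 6 connexin genes in each library (points) with the group mean (bar), on a linear axis for each gene that starts at 0, by line from Dkk1_KO on the left to control on the right. The first 2 panels are Gja4 and Gjb5, where the knockout points lie above all others, and the last 2 panels are Gja1 and Gjc1, where they lie below.

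Summed over the family, claudins gave 692 ± 23.7 TPM in Dkk1_KO (SD, n = 3), 25.4 ± 1.85 in IWP2_removed, 23.6 ± 5.06 in IWP2 and 41.3 ± 2.53 in control (SD, n = 2 each). Cldn7, Cldn4 and Cldn6 made up 33.2%, 27.5% and 24.5% of the claudin TPM in Dkk1_KO, while Cldn12 alone made up 61.4% in IWP2_removed, 51.4% in IWP2 and 46.0% in control. Cldn7 led in Dkk1_KO through its short transcripts: on transcripts of at least 400 bases it averaged 65.0 ± 3.10 TPM there, against 189.9 ± 6.89 TPM for Cldn4 (SD, n = 3). By share of the family's CPM in Dkk1_KO, Cldn4 came first with 41.9%, Cldn6 had 30.0% and Cldn7 12.2%. On CPM, which is not per length and which short transcripts do not swell, the summed reads of claudins were 1197 ± 36.9 in Dkk1_KO against 113 ± 10.2 in control, in the direction of the TPM sums.

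Both desmosomal cadherins of simple epithelia were higher in the knockout line. Dsg2 (ENSMUSG00000044393.15, chromosome 18, 20558074 to 20604521, plus strand), the desmoglein found in nearly all desmosome-bearing tissues, had 13.5, 14.1 and 13.8 TPM in Dkk1_KO, 0.258 and 0.319 TPM in IWP2_removed, 0.458 and 0.389 TPM in IWP2, and 0.909 and 0.596 TPM in control. The 6 libraries outside the knockout were low throughout, and none came near the 3 knockout libraries. Its log2 fold change was 4.54 ± 0.18 (SE, adjusted p = 1.27e-06). Dsc2 (ENSMUSG00000024331.11, chromosome 18, 20030633 to 20059554, minus strand), the desmocollin that pairs with it, had 9.79, 9.99 and 10.2 TPM in Dkk1_KO, 1.80 and 1.42 TPM in IWP2_removed, 2.06 and 1.04 TPM in IWP2, and 3.47 and 2.46 TPM in control. The knockout libraries lay above the highest of the others, a control library, and the log2 fold change was 2.05 ± 0.23 (SE, adjusted p = 0.000208). Dsg2 held the larger share of the family's TPM in every Dkk1_KO library and Dsc2 in every other library. The remaining 7 desmosomal cadherins, which belong mainly to stratified epithelia, were not tested. Of these Dsc3 had the most reads in Dkk1_KO, 6, 10 and 9, against 6 and 4 in control.

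Plakophilins are armadillo-repeat proteins of the desmosomal plaque. Pkp3 (ENSMUSG00000054065.12, chromosome 7, 141078218 to 141090510, plus strand), a plakophilin of epithelia, had 19.7, 20.1 and 23.2 TPM in Dkk1_KO, 0.384 and 0.479 TPM in IWP2_removed, 0.0152 and 0.207 TPM in IWP2, and 0.329 and 0.136 TPM in control. It was near 0 in every library outside the knockout, with 5 and 4 reads in IWP2_removed, 1 and 1 in IWP2 and 3 and 5 in control, and its log2 fold change was 7.16 ± 0.23 (SE, adjusted p = 8.05e-07). Pkp2 (ENSMUSG00000041957.15, chromosome 16, 16213318 to 16272712, plus strand), the plakophilin shared by simple epithelia and heart muscle, had 11.4, 11.3 and 11.4 TPM in Dkk1_KO, 7.91 and 6.0 TPM in IWP2_removed, 5.48 and 4.99 TPM in IWP2, and 9.57 and 5.63 TPM in control. The knockout libraries were nearly equal and above both control libraries by a small margin, 0.84 ± 0.18 (SE, adjusted p = 0.00523) on the log2 scale. Pkp4 (ENSMUSG00000026991.20, chromosome 2, 59160850 to 59355208, plus strand), a relative found at both desmosomes and adherens junctions, had 37.5, 47.6 and 43.2 TPM in Dkk1_KO, 24.8 and 21.6 TPM in IWP2_removed, 19.5 and 15.7 TPM in IWP2, and 32.6 and 35.7 TPM in control. The lowest knockout library was close to the higher control library, and the log2 fold change was 0.62 ± 0.10 (SE, adjusted p = 0.00148). On TPM, Pkp2 and Pkp4 no longer passed (limma-trend on log2(TPM + 1), adjusted p = 0.0865 and 0.155). Pkp1, of stratified epithelia, was not tested, with 2, 5 and 0 reads in Dkk1_KO and 1 and 2 in control.

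Of the ZO scaffolds described here Tjp3 was higher in the knockout line, while the call of Tjp1 depended on the fit. Tjp3 (ENSMUSG00000034917.8, chromosome 10, 81273207 to 81291581, minus strand), which encodes ZO-3, had 22.6, 23.4 and 21.6 TPM in Dkk1_KO, 3.10 and 4.29 TPM in IWP2_removed, 2.02 and 2.38 TPM in IWP2, and 1.71 and 3.84 TPM in control. The knockout libraries lay far above the others, among which the lines overlapped, and the log2 fold change was 3.25 ± 0.48 (SE, adjusted p = 0.000793). Tjp1 (ENSMUSG00000030516.14, chromosome 7, 65296165 to 65527781, minus strand), which encodes ZO-1, had 37.3, 38.9 and 35.1 TPM in Dkk1_KO, 27.4 and 28 TPM in IWP2_removed, 28.6 and 19.6 TPM in IWP2, and 45.0 and 33.1 TPM in control. Its knockout and control libraries overlapped in TPM, of which 7.95% in Dkk1_KO and 20.2% in control sat on transcripts under 400 bases. On CPM they did not overlap, with 279 ± 2.96 in Dkk1_KO (SD, n = 3) and 202 ± 0.0615 in control (SD, n = 2; log2 fold change 0.46 ± 0.18 SE, adjusted p = 0.0623). Tjp1 was called higher by DESeq2 (adjusted p = 0.0425), without a read filter (adjusted p = 0.0315) and with only the groups compared (adjusted p = 0.00128), while on TPM the log2 difference was -0.057 (limma-trend, adjusted p = 0.838).

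**Figure D3:**
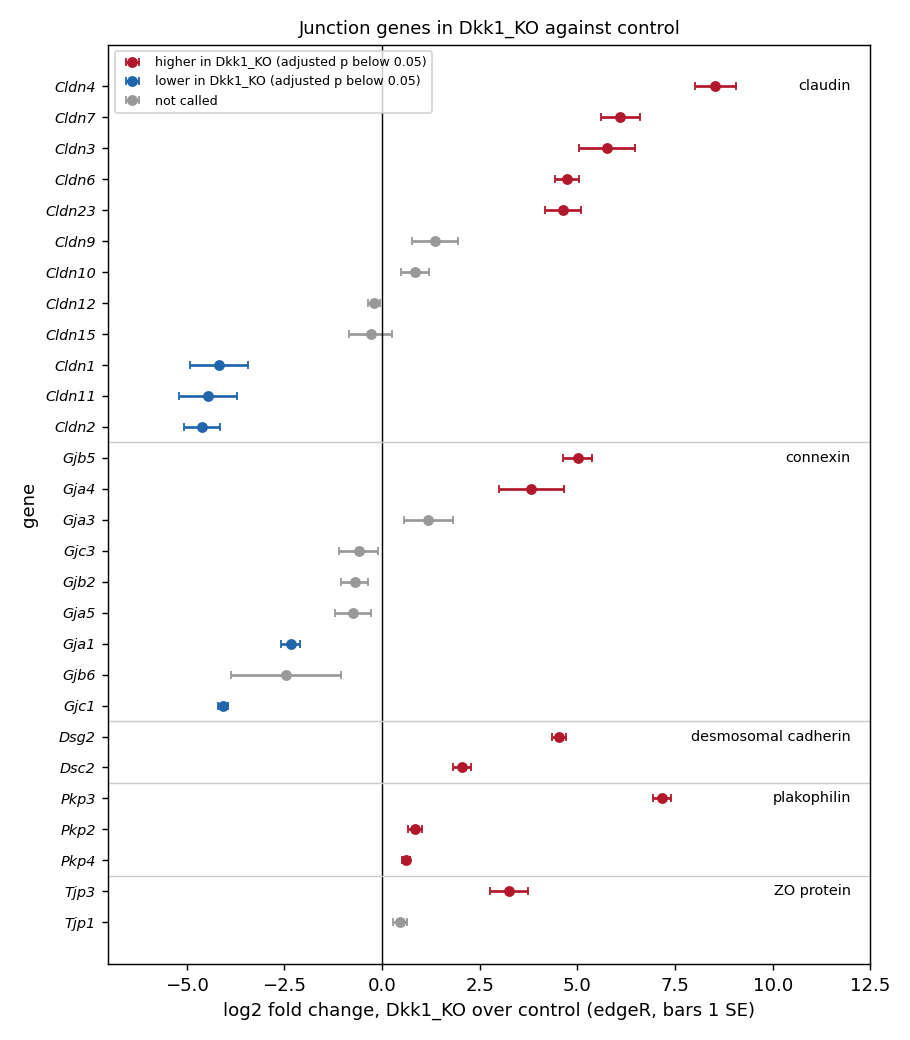
Log2 fold change of Dkk1_KO over control for 28 tested junction genes (rows, by family), with bars of 1 SE from edgeR. Red points are the 13 genes called higher, blue points the 5 called lower and grey points the 10 without a call, and the red genes reach 8.53 (Cldn4) and the blue ones -4.61 (Cldn2).

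The 26 members without a test had at most 11 reads in any library and at most 0.303 TPM. They were 13 claudins, 5 connexins, 7 desmosomal cadherins and Pkp1. No read was assigned to Cldn13, Cldn16, Cldn17, Cldn22, Cldn24, Cldn34a or Cldn34d in any library. Cldn5, the claudin of endothelium, had 1, 2 and 3 reads in Dkk1_KO, no read in IWP2_removed or IWP2, and 2 and 6 in control. A limit of 3 reads over a group was taken where 0 were counted, and control reads were taken as counted. On that reckoning Cldn5 was 3.17-fold lower in IWP2_removed and 3.44-fold lower in IWP2 than in control. The counting error of the few control reads and the spread between libraries are left out, so the true folds could be smaller. Dsc3, with 0 and 0 reads in IWP2 and 6 and 4 in control, was 4.30-fold lower in IWP2 on the same reckoning, with the same limits. Without the read filter 19 of these 26 members entered the fit, and 1 call was made over the 4 comparisons, Dsc3 in IWP2 against control (edgeR, adjusted p = 0.0262).

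Other genes of the same structures were counted from lists chosen with earlier results of these data known. Beside the counts of each list, 21.3% of all genes tested were higher and 23.0% lower in Dkk1_KO. Of 6 other desmosome genes 4 were higher in Dkk1_KO and 0 lower, with a median log2 fold change of 2.09. Jup (plakoglobin) had 87.0 ± 7.12 TPM in Dkk1_KO and 23.4 ± 6.15 TPM in control (SD, n = 3 and n = 2), and Dsp (desmoplakin) 18.9 ± 0.248 TPM in Dkk1_KO and 2.75 ± 0.387 TPM in control. The membrane protein Perp had 75.3 ± 1.11 TPM in Dkk1_KO and 26.2 ± 18.7 TPM in control, and Ppl (periplakin) 2.02 ± 0.0988 TPM in Dkk1_KO and 0.235 ± 0.0676 TPM in control. Their log2 fold changes were 2.36 ± 0.26 (SE, adjusted p = 0.000179) for Jup, 2.97 ± 0.28 (SE, adjusted p = 7.65e-05) for Dsp, 1.82 ± 0.64 (SE, adjusted p = 0.047) for Perp and 3.36 ± 0.32 (SE, adjusted p = 7.39e-05) for Ppl. All 5 simple epithelial keratins, the filament proteins that desmosomes anchor, were higher, with Krt8 at 254 ± 3.80 TPM in Dkk1_KO and 10.7 ± 6.0 TPM in control and Krt18 at 554 ± 9.19 TPM in Dkk1_KO and 20.6 ± 10.5 TPM in control. Krt19 (log2 fold change 3.02 ± 0.48 SE, adjusted p = 0.00117) and Krt7 (log2 fold change 6.24 ± 0.24 SE, adjusted p = 1.23e-06) were higher as well. Krt7 is also on the trophoblast list above.

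Of 18 other tight junction genes 10 were higher and 5 lower, with a median of 0.46. Over all genes tested 21.3% were higher and 23.0% lower. The junctional adhesion molecules went apart, with F11r (JAM-A) at 101 ± 0.955 TPM in Dkk1_KO and 17.0 ± 0.881 TPM in control (log2 fold change 2.88 ± 0.15 SE, adjusted p = 3.76e-06), Jam2 at 1.57 ± 0.232 TPM in Dkk1_KO and 16.2 ± 1.15 TPM in control (log2 fold change -3.78 ± 0.18 SE, adjusted p = 2.86e-06), and Jam3 at 2.73 ± 0.242 TPM in Dkk1_KO and 26.0 ± 1.88 TPM in control (log2 fold change -2.98 ± 0.13 SE, adjusted p = 1.82e-06). The scaffold Mpdz fell to 6.18 ± 0.400 TPM in Dkk1_KO, against 35.1 ± 6.63 TPM in control (log2 fold change -2.16 ± 0.17 SE, adjusted p = 2.75e-05). Of the other gap junction genes 4 of 7 were tested, 0 were higher and 1 was lower, the pannexin Panx1, at 11.4 ± 2.56 TPM in Dkk1_KO and 28.3 ± 4.80 TPM in control (log2 fold change -1.22 ± 0.18 SE, adjusted p = 0.000808). Adherens junction genes were 7 higher and 4 lower of 13, with a median of 0.69. Epcam, the adhesion molecule that Cldn7 binds, had 173 ± 1.74 TPM in Dkk1_KO and 22.2 ± 1.97 TPM in control (log2 fold change 3.20 ± 0.29 SE, adjusted p = 6.22e-05), and α-catenin of epithelia, Ctnna1, had 134 ± 1.58 TPM in Dkk1_KO and 65.8 ± 9.92 TPM in control (log2 fold change 1.27 ± 0.12 SE, adjusted p = 7.54e-05). Nectin3 (log2 fold change -1.79 ± 0.15 SE, adjusted p = 3.45e-05) and the neural α-catenin Ctnna2 (log2 fold change -3.66 ± 0.26 SE, adjusted p = 1.67e-05) were lower.

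Polarity complex genes split into 6 higher and 5 lower of 15, with a median of 0.12, where 21.3% and 23.0% of all genes tested were. Llgl2 (log2 fold change 3.97 ± 0.27 SE, adjusted p = 1.41e-05), Pard6b (log2 fold change 2.75 ± 0.30 SE, adjusted p = 0.000177) and Patj (log2 fold change 1.90 ± 0.14 SE, adjusted p = 2.36e-05) were higher, and Crb2, a Crumbs protein, was lower (log2 fold change -3.14 ± 0.23 SE, adjusted p = 1.77e-05). Of 17 tested regulators known to act on junction genes 13 were higher and 2 lower, with a median of 2.90. Grhl2, a Grainyhead-like activator of epithelial genes, had 17.6 ± 1.53 TPM in Dkk1_KO and 0.617 ± 0.369 TPM in control (log2 fold change 5.12 ± 0.28 SE, adjusted p = 5.61e-06), and the epithelial splicing factor Esrp1 had 16.5 ± 0.566 TPM in Dkk1_KO and 0.182 ± 0.0509 TPM in control (log2 fold change 6.77 ± 0.32 SE, adjusted p = 2.78e-06). Klf5, a factor of trophectoderm and gut epithelium, had 17.0 ± 0.675 TPM in Dkk1_KO and 2.67 ± 0.0906 TPM in control (log2 fold change 2.90 ± 0.21 SE, adjusted p = 1.84e-05). Zeb1, a repressor that binds the E-box marked above, had 152, 158 and 173 reads in Dkk1_KO and 803 and 1278 in control (log2 fold change -2.70 ± 0.16 SE, adjusted p = 7.34e-06). The part of Zeb1 in the values of the junction genes was not tested. The trophoblast list was 7 higher of 7, with Elf5 (log2 fold change 10.65 ± 0.25 SE, adjusted p = 2.2e-07), Hand1 (log2 fold change 12.77 ± 0.38 SE, adjusted p = 8.05e-07) and Cdx2 (log2 fold change 8.17 ± 0.48 SE, adjusted p = 7.34e-06) among them. The epiblast list was 5 lower of 5, with Tdgf1 (log2 fold change -9.59 ± 0.39 SE, adjusted p = 1.41e-06), Nanog (log2 fold change -6.40 ± 0.36 SE, adjusted p = 6.22e-06), Pou5f1 (log2 fold change -8.35 ± 0.55 SE, adjusted p = 1.19e-05) and Otx2 (log2 fold change -7.39 ± 0.69 SE, adjusted p = 6.77e-05). The fibroblast list was 7 lower of 8, with Dcn (log2 fold change -3.89 ± 0.20 SE, adjusted p = 3.76e-06), Lum (log2 fold change -3.31 ± 0.23 SE, adjusted p = 1.65e-05), Postn (log2 fold change -2.15 ± 0.19 SE, adjusted p = 5.85e-05) and Col3a1 (log2 fold change -1.98 ± 0.20 SE, adjusted p = 9.47e-05) among them.

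The comparisons without the knockout set the 2 lines derived or kept with the Wnt inhibitor beside control and beside each other for the same genes. They share the control or IWP2 libraries with each other, so their values are given side by side. In IWP2_removed against control 0 members were higher and 1 lower of 28, Dsg2, where 0.669% of all genes tested were higher and 0.586% lower. At an unadjusted p under 0.05 there were 1 higher and 7 lower, and DESeq2 called 0 higher and 2 lower. In IWP2 against control 0 members were higher and 0 lower, where 1.27% of all genes were higher and 0.917% lower. At an unadjusted p under 0.05 there were 0 higher and 11 lower, and DESeq2 called 0 higher and 3 lower. In IWP2_removed against IWP2 0 members were higher and 0 lower, where 0.0387% of all genes were higher and 0.0221% lower. There 4 were higher and 2 lower at an unadjusted p under 0.05, and DESeq2 called 0 in either direction. The medians over the 28 members were -0.31, -0.39 and 0.18 in these 3 comparisons, and between -0.01 and 0.01 over all genes tested.

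Dsg2 had 29 and 36 reads in IWP2_removed, 55 and 52 in IWP2 and 70 and 76 in control. On CPM it averaged 2.01 ± 0.358 in IWP2_removed, 3.04 ± 0.0274 in IWP2 and 5.48 ± 1.07 in control (SD, n = 2 each), without overlap between the lines. Its log2 fold change was -1.44 ± 0.19 (SE, adjusted p = 0.0166) for IWP2_removed over control and -0.84 ± 0.18 (SE, adjusted p = 0.0587) for IWP2 over control, and between IWP2_removed and IWP2 it was -0.60 ± 0.20 (SE, adjusted p = 0.337). The call against control was lost, with an adjusted p of 0.444, in a fit of the 6 libraries without Dkk1_KO, and leaving out control replicate 1 or either IWP2_removed library also ended it (adjusted p = 0.0643, 0.106 and 0.0762). Within the letters of the file names, the log2 ratio of IWP2_removed over control was -1.83 in B and -1.06 in C.

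Dsc2, Cldn6, Cldn4 and Cldn10 had lower values in both inhibitor lines than in control without passing the test. Dsc2 averaged 9.54 ± 1.14 CPM in IWP2_removed, 9.26 ± 3.49 CPM in IWP2 and 16.3 ± 2.45 CPM in control, with no library of the inhibitor lines above a control library. Its log2 fold changes over control were -0.77 ± 0.25 (SE, unadjusted p = 0.0132, adjusted p = 0.231) in IWP2_removed and -0.81 ± 0.25 (SE, unadjusted p = 0.0101, adjusted p = 0.14) in IWP2. Cldn6 gave -0.99 ± 0.30 (SE, unadjusted p = 0.00945, adjusted p = 0.199) in IWP2_removed and -0.82 ± 0.29 (SE, unadjusted p = 0.0211, adjusted p = 0.203) in IWP2. Cldn10, a pore-forming claudin of kidney and glands, gave -1.87 ± 0.44 (SE, unadjusted p = 0.00247, adjusted p = 0.0983) in IWP2_removed and -1.73 ± 0.43 (SE, unadjusted p = 0.00349, adjusted p = 0.0848) in IWP2, from 9 and 6 reads in IWP2_removed, 11 and 7 in IWP2 and 15 and 33 in control. Cldn4, low in all 6 of these libraries, gave -2.41 ± 0.79 (SE, unadjusted p = 0.0147, adjusted p = 0.245) in IWP2_removed and -2.71 ± 0.81 (SE, unadjusted p = 0.00909, adjusted p = 0.134) in IWP2. Its reads were 1 and 7 in IWP2_removed, 6 and 1 in IWP2 and 6 and 32 in control. The difference rested largely on control replicate 2, and Cldn4 reached the read filter through Dkk1_KO but not control.

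**Figure D4:**
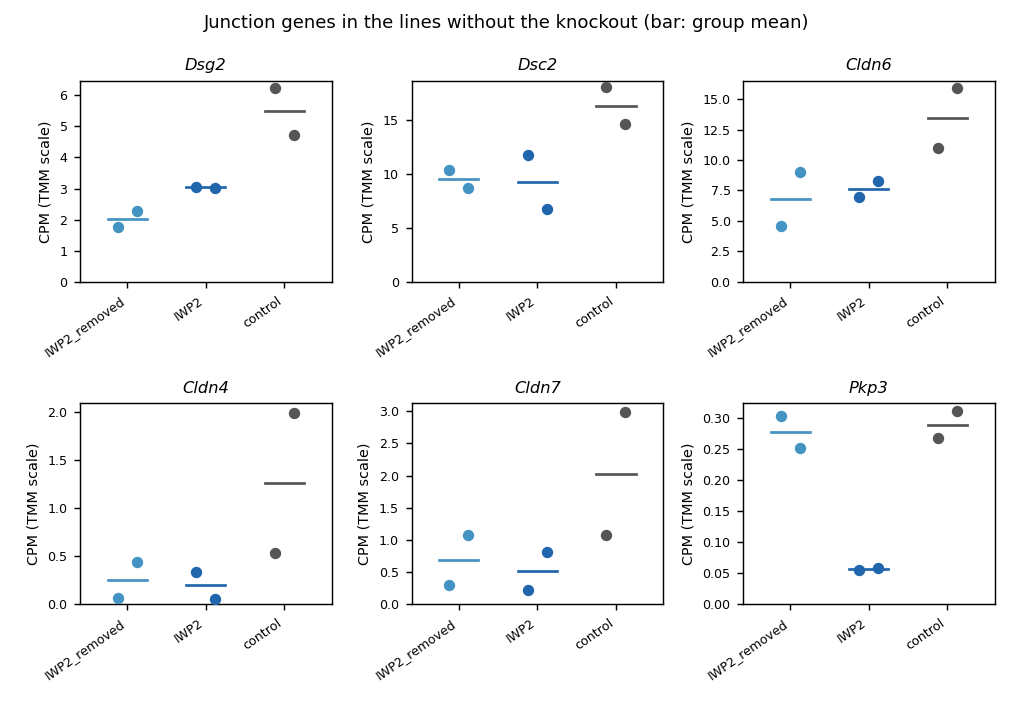
CPM on the TMM scale of 6 junction genes in the 6 libraries without the knockout (points) with the group mean (bar), on linear axes that start at 0, from IWP2_removed on the left to control on the right. Both libraries of each inhibitor line lie below both control libraries for Dsg2, Dsc2, Cldn6, Cldn4 and Cldn7. For Cldn4, IWP2 replicate 1 and control replicate 1 had 6 reads each, so these points differ by library scaling only. For Cldn7, IWP2_removed replicate 2 had 17 reads and control replicate 1 had 12, and their points nearly meet. Pkp3 is lowest in the 2 IWP2 libraries, on an axis that covers a few reads only.

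Between IWP2_removed and IWP2 the smallest unadjusted p-values belonged to Pkp4, Cldn2, Gjb5, Dsg2 and Pkp3, none of which passed. Pkp4 had 24.8 and 21.6 TPM in IWP2_removed and 19.5 and 15.7 TPM in IWP2, a log2 fold change of 0.37 ± 0.11 (SE, unadjusted p = 0.00996, adjusted p = 0.289), and in IWP2 it was -0.39 ± 0.11 (SE, unadjusted p = 0.00708, adjusted p = 0.12) against control. Gjb5 gave 1.34 ± 0.42 (SE, unadjusted p = 0.0121, adjusted p = 0.31) from 44 and 24 reads in IWP2_removed and 21 and 8 in IWP2, and Cldn2 gave -1.37 ± 0.42 (SE, unadjusted p = 0.01, adjusted p = 0.291) from 19 and 16 reads in IWP2_removed and 57 and 42 in IWP2. In IWP2_removed against control Cldn2 stood at -1.78 ± 0.42 (SE, unadjusted p = 0.00244, adjusted p = 0.098). Pkp3 had 5 and 4 reads in IWP2_removed and 1 and 1 in IWP2, so its value (log2 fold change 2.13 ± 0.44 SE, unadjusted p = 0.02, adjusted p = 0.367) rests on a handful of reads.

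In the companion lists, IWP2_removed against control held 1 call, Ehf, an Ets factor of epithelia, which was higher (log2 fold change 2.46 ± 0.46 SE, adjusted p = 0.0474). IWP2 against control held Ehf, higher (log2 fold change 2.24 ± 0.46 SE, adjusted p = 0.0492), and 4 genes lower: Grhl2 (log2 fold change -2.15 ± 0.37 SE, adjusted p = 0.0265), Klf5 (log2 fold change -1.18 ± 0.22 SE, adjusted p = 0.0362), Krt7 (log2 fold change -1.65 ± 0.29 SE, adjusted p = 0.0292) and Nectin2 (log2 fold change -0.72 ± 0.12 SE, adjusted p = 0.0227). IWP2_removed against IWP2 held none. Ehf, Grhl2 and Klf5 were among 17 tested regulators, Krt7 among 5 keratins and 7 trophoblast genes, and Nectin2 among 13 adherens junction genes. Over all genes tested, 1.27% were higher and 0.917% lower in IWP2 against control. In IWP2_removed against control 0.669% were higher and 0.586% lower. These 5 genes were named after their values were seen, and how far their calls depend on the fit is not given here. Summed over the family, desmosomal cadherins gave 24.0 ± 0.488 TPM in Dkk1_KO, 1.93 ± 0.231 in IWP2_removed, 2.03 ± 0.794 in IWP2 and 3.82 ± 1.01 in control, while plakophilins gave 75.2 ± 5.63 TPM in Dkk1_KO, 30.6 ± 3.62 in IWP2_removed, 23.0 ± 2.91 in IWP2 and 42.0 ± 0.763 in control. No sums are given for connexins and ZO proteins, since not all of their members are described here.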

How the data were processed

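The authors' deposited tables give, per transcript, estimated counts (which need not be whole) and TPM, a level scaled by length. Salmon, DESeq2 and edgeR are named in the submitters' processing notes, with no version. The transcriptome build was not given in the sources used here. Transcripts were assigned to genes by stable identifier with GENCODE release M21 of mouse GRCm38. Of 133618 transcripts 133399 matched, and the 219 others held 0.117% to 0.161% of the reads. TPM and counts were summed per gene, and the counts were rounded. All 9 libraries entered an edgeR 4.0.16 quasi-likelihood fit (1 mean per group, TMM scaling) (R 4.3.3), after filterByExpr, which left 18096 genes. A gene was called at a Benjamini-Hochberg adjusted p below 0.05 over these genes. The SE is the log2 fold change divided by the square root of its F statistic. The pipeline was also run on simulated counts with the same spread in every group. The real groups differed in spread, so that run cannot vouch for the p-values here. Library totals limit precision for genes of few reads.

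Members, companion lists, tests and the naming rule were chosen with earlier results of these data known. Values in each library were given for members with a mean of at least 5 TPM in a group. From each companion list up to 4 called genes with the smallest adjusted p were named, and in comparisons without Dkk1_KO the called members and those with the smallest p, up to 5. Alternatives were DESeq2 size factors, the DESeq2 1.42.0 Wald test, no filter, a filter at a mean of 1 CPM, only the groups compared, the 6 libraries without Dkk1_KO, limma-trend (limma 3.58.1) on log2(TPM + 1), a replicate block, averaged Dkk1_KO libraries and each library left out in turn. Protein sequences were not used here. Of the members found by the rule, 3 are not reported here, and counts over members leave them out, while the fit and its adjustment cover all genes.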

Additional observations from a re-analysis of the deposited data

How the results depend on the processing

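For Dkk1_KO against control the number of members called ran from 10 to 15 higher and from 4 to 7 lower over all alternatives tried, and no called member changed direction. Of the members without a call, Tjp1 turned to -0.057 by limma-trend on TPM, and Cldn15 to 0.040 with the number as a replicate block and ranged from -0.50 to 0.053 with 1 library left out (0.053 without Dkk1_KO replicate 3). With the replicate number as a replicate block 13 members were higher and 6 lower, and with the letter of the file names as a block 13 and 5. Each comparison shared only 2 numbers. Same-numbered libraries deviated together between control, IWP2_removed and IWP2 (r from 0.414 to 0.649 across 12107 genes) but not between these and Dkk1_KO by number (-0.112 to -0.0565). The single lower call of IWP2_removed against control became 2 by DESeq2 and 5 without a filter on low counts. It became 0 with only the groups compared, by limma-trend, and in the 6 libraries outside the knockout, also with a replicate block, a fit chosen after seeing the data. Leaving out 1 library at a time gave 0 to 1. The count of 0 lower members in IWP2 against control became 3 by DESeq2 and 6 without a filter, and ranged from 0 to 6 with 1 library left out (6 without IWP2 replicate 1 and 1 without IWP2 replicate 2). The count of 0 higher members in IWP2_removed against IWP2 became 1 without a filter and ranged from 0 to 1 with 1 library left out. The causes were not tested. The claudin sum on CPM in place of TPM kept its direction, with a log2 ratio of Dkk1_KO over control of 3.41 in place of 4.07.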
